A study of Mus musculus with 5 samples.

Results

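Death receptors and caspases are the surface receptors and proteases through which a cell is told to die, and 8 mouse genes of this machinery were followed here across 5 arrays. The genes were the receptors Fas, Tnfrsf1a and Tnfrsf10b, the caspase inhibitor Cflar and the caspases Casp8, Casp9, Casp6 and Casp12. Their probes were found by matching the transcript record that each probe carries to a gene, which gave 14 probes for the 8 genes among 26888 named probes for 18327 gene symbols.

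RNA from 5 mouse cell samples was labelled in 1 colour and hybridised to Agilent whole-genome arrays, with 1 array for each condition. ES was the E14 embryonic stem line, made to express a red fluorescent protein and hygromycin resistance from a lentivirus with an EF-1α promoter, and Hepa1-6 was a hepatoma line carrying a green fluorescent protein and neomycin resistance. EHe was a hybrid made by fusing E14 with Hepa1-6, and EHeD7 and EHeD14 were EHe hybrids after differentiation in culture for 7 and 14 days. Hybrids of this kind were picked as single colonies with a near-tetraploid chromosome content. A hybrid array may thus speak for a clone and not for a population of independent fusions. The study's methods do not say how many colonies went to each array. ES and EHe grew in Glasgow minimum essential medium with knockout serum replacement, fetal bovine serum and leukemia inhibitory factor, whereas the differentiating hybrids and Hepa1-6 grew in high-glucose DMEM with fetal calf serum, the hybrids as a monolayer on gelatin. These media are those of the sample labels, while the study's methods describe a differentiation in a medium with serum replacement and do not say which cultures went to the arrays. By either account medium and cell state changed together between EHe and the differentiated hybrids and cannot be told apart. Hepa1-6 also grew in another medium than ES and EHe, so medium and cell line cannot be told apart in those comparisons.

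Signal is given as the log2 of each probe's intensity minus the log2 of the 75th percentile of its array, called relative log2 signal, so that 0 is a probe at that percentile. The 75th percentile was an intensity of 1087 for ES, 1293 for EHe, 1307 for EHeD7, 1335 for EHeD14 and 1456 for Hepa1-6. The share of the 41174 probes called well above background was 62.1% for ES, 56.8% for EHe, 67.6% for EHeD7, 63.6% for EHeD14 and 54.6% for Hepa1-6. Each condition had a single array, which leaves the error between replicates unknown, and no p-value is given. The only error available was that between repeated spots of a probe on the same array, a median SD of 0.14 log2 for ES, 0.13 for EHe, 0.09 for EHeD7, 0.11 for EHeD14 and 0.11 for Hepa1-6 over 245 probes printed 10 times, and neighbouring values are said to differ where they lie more than 2 such SDs of a difference apart. This error leaves out differences between cultures and between labellings, and its limit is that of a single spot. The limit is wide for the Fas and Tnfrsf1a probes printed 10 times, whose values are means over their spots. A probe was called higher or lower when 2 arrays differed by more than 3-fold. The first 4 conditions shared a slide and Hepa1-6 was on another, so slide and cell line cannot be told apart in any comparison with Hepa1-6.

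Cell identity was checked with marker genes. The 4 pluripotency markers matched to a probe, Pou5f1, Sox2, Zfp42 and Esrrb, were all well above background in ES, EHe, EHeD7 and EHeD14 and in none of 4 cases in Hepa1-6. Their summed signal, in units of the 75th percentile, was 92.7 for ES, 95.1 for EHe, 31.8 for EHeD7, 23.7 for EHeD14 and 0.03 for Hepa1-6, with Zfp42 the brightest in ES and EHe and Pou5f1 in the differentiated hybrids. Of 5 hepatocyte markers, Alb, Afp and Apob were well above background in Hepa1-6 while Ttr and Apoa1 were not on any array, and the summed signal was 0.13 for ES, 0.04 for EHe, 0.04 for EHeD7, 0.05 for EHeD14 and 177 for Hepa1-6, of which Afp made up 109. Whether the Ttr and Apoa1 probes read their transcripts was not tested, so signal at background there does not show that the genes were silent. At day 14 against EHe 3 of the 4 pluripotency genes fell, with log2 differences of -2.16 for Sox2, -4.09 for Zfp42 and -6.86 for Esrrb, and Pou5f1, with a difference of 0.13, carried the sum.

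Death receptors of the tumour necrosis factor receptor superfamily carry an intracellular death domain and, once bound by ligand, recruit adaptors and procaspase-8 into a signalling complex on which the initiator caspase is activated, while the mitochondrial route activates caspase-9 on the apoptosome. Both routes converge on executioner caspases that cleave structural and repair proteins, and Cflar, a relative of caspase-8 without protease activity, controls the receptor route at its start. Hepatocytes are known for their sensitivity to Fas, and tumour necrosis factor signals through the same superfamily to NF-kB and survival as well as to death.

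The comparison of the 2 parent lines sets these genes in the hepatoma beside those in the stem cell line, each line in its own medium and on its own slide. In Hepa1-6, Fas, Tnfrsf1a, Cflar, Casp8 and Casp12 stood above ES by at least 5.81-fold through at least 1 probe each, while Casp6, Casp9 and Tnfrsf10b were within 3-fold. Over the 14 member probes 6 were higher in Hepa1-6 and 0 lower, where 13.4% of all 27423 probes tested were higher and 19.4% lower. Over the 12 probes well above background on both arrays, which leaves out Casp12 and 1 Fas probe, 5 were higher and 0 lower. Of all such probes 13.1% were higher and 13.7% lower. The 8 genes were chosen with earlier results of these data known, so these counts are a description. The median difference over the 8 genes, with 1 probe each, was 2.79 log2, beside -0.34 for all probes tested. Casp12 entered only through its bright Hepa1-6 array and had to differ, and over the genes well above background on both arrays the median was 2.54. The split of calls over all probes depended on scaling, since 41.0% of calls were higher here, 56.3% after quantile normalization and 69.6% after centring on the array median, which moved the median of all probes to 0.39. The member counts were 8 higher and 0 lower under both of those scalings, with a further probe each of Tnfrsf10b and Cflar, where 17.4% of all probes were higher with quantile normalization and 23.8% with centring. Centring also made the folds of Hepa1-6 over ES larger, as in 31.1-fold for Fas and 14.1-fold for Tnfrsf1a.

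The other comparisons set EHe beside ES, the differentiated hybrids beside EHe, and EHeD14 beside Hepa1-6, with 1 array for each condition. EHe against ES gave 0 member probes higher and 0 lower of 12 tested, where 2.90% of all probes were higher and 3.16% lower, and the split of all calls moved from 47.9% higher to 58.2% with centring on the median. EHeD7 against EHe gave 1 probe higher, of Fas, and 0 lower of 12, where 5.36% were higher and 3.83% lower. EHeD14 against EHe gave 2 higher, of Fas and Tnfrsf10b, and 0 lower of 12, where 5.80% were higher and 4.24% lower. In EHeD14 against Hepa1-6 5 of 14 probes were lower, of Casp12, Casp8, Cflar and Tnfrsf1a, and 1 of Tnfrsf10b was higher, where 12.2% of all probes were lower and 16.2% higher. With quantile normalization and with centring on the median 7 were lower and 0 higher, where 16.0% and 24.1% of all probes were lower, and with normexp background correction 5 and 0, where 8.59% were lower. Over the 12 probes well above background on both arrays, which leaves out Casp12, 4 were lower and 1 higher, beside 12.3% and 10.1% of all such probes.

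The median over the genes with a tested probe was -0.63 log2 for EHe against ES, 0.66 for EHeD7 against EHe, 0.96 for EHeD14 against EHe and -2.12 for EHeD14 against Hepa1-6, beside -0.06, 0, -0.03 and 0.20 for all probes tested. Casp12 enters the last of these only through its bright Hepa1-6 array, and over the genes well above background on both arrays that median was -1.28. The median for EHe against ES was -0.35 with a mean over each gene's probes and -0.39 with normexp correction. Centring on the array median moved the median of all probes to -0.18 for EHeD7 against EHe, -0.19 for EHeD14 against EHe and -0.55 for EHeD14 against Hepa1-6, where the share of calls that were higher went from 56.9% to 28.3%, and to 43.2% with quantile normalization. These comparisons share arrays, EHe in 3 of them and EHeD14 in 2, and the Hepa1-6 array serves in the comparisons with both ES and EHeD14, so they are not independent of each other.

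**Figure D1:**
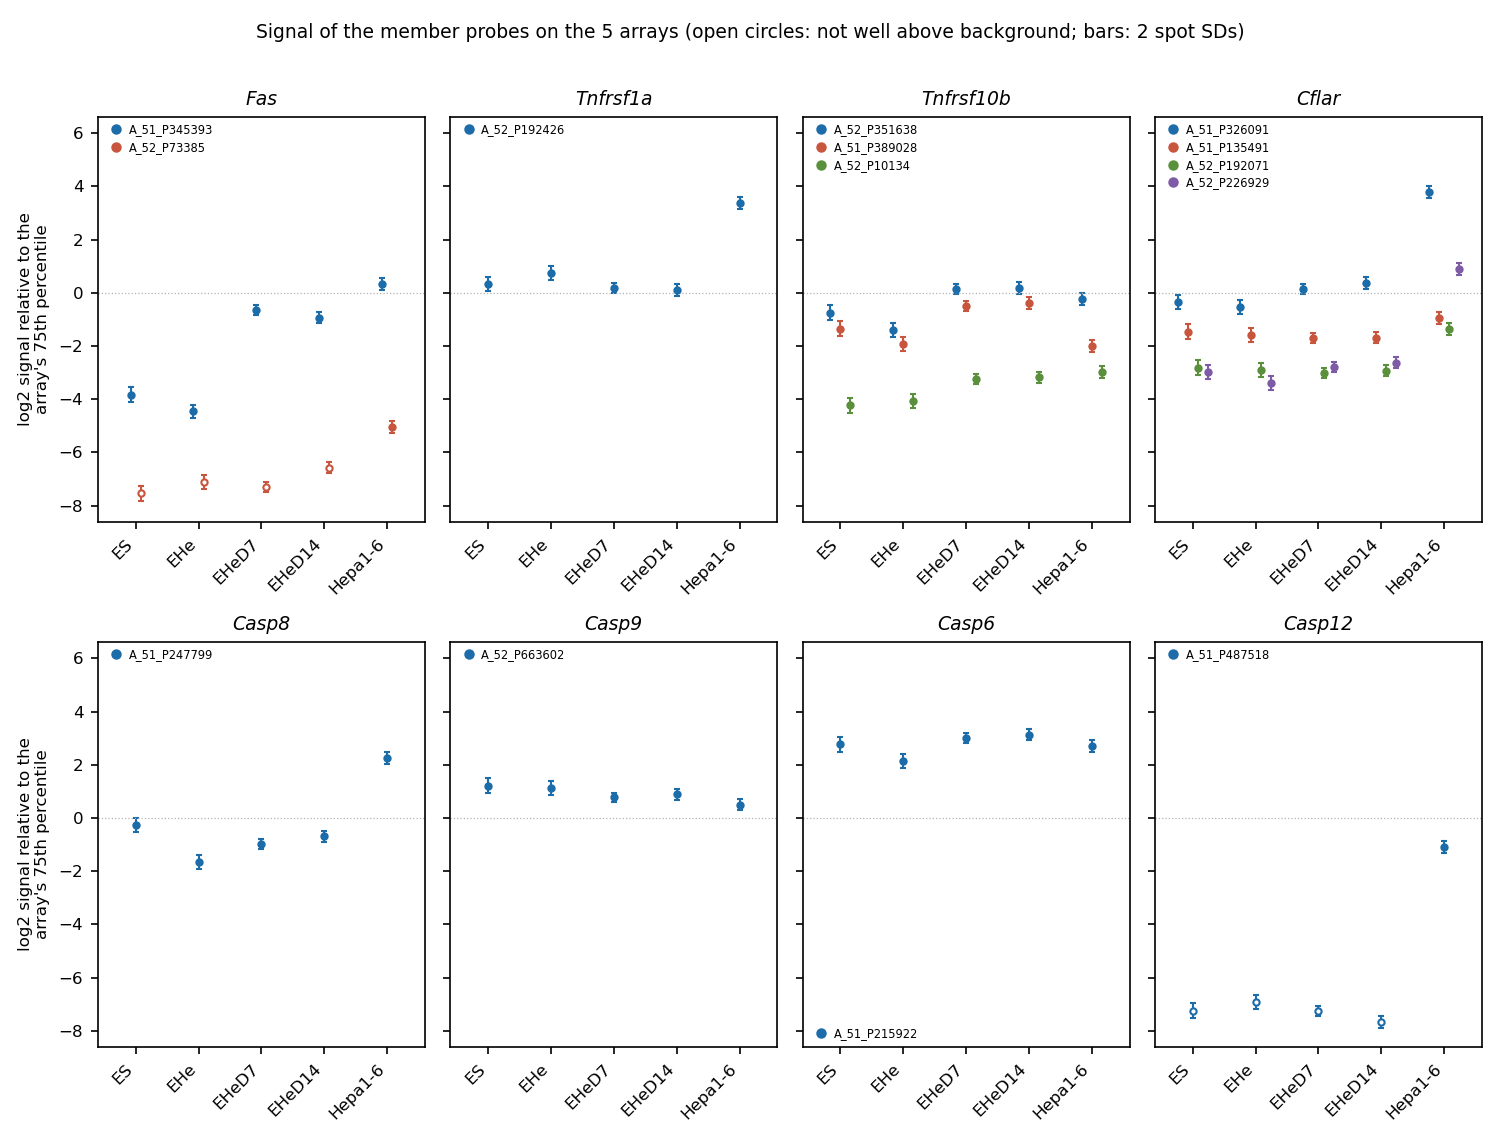
Relative log2 signal (log2 intensity minus that of the array's 75th percentile) of the 14 probes of the 8 genes on the ES, EHe, EHeD7, EHeD14 and Hepa1-6 arrays. Filled circles are probes well above background, open circles are probes that were not, and bars are 2 spot SDs of the array. Fas moves from -4.46 in EHe to -0.64 in EHeD7, and Casp12 is well above background in Hepa1-6 alone, at -1.08.

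Fas is the receptor of Fas ligand. Its probe A_51_P345393, printed 10 times, had a relative log2 signal of -3.84 for ES, -4.46 for EHe, -0.64 for EHeD7, -0.94 for EHeD14 and 0.34 for Hepa1-6, from intensities of 76.2, 58.6, 838, 697 and 1842. Fas was thus low in both undifferentiated samples and high in the differentiated hybrids and the hepatoma. The spots, 9 in ES after an outlier was left out and 10 in each other array, did not overlap between arrays, since they ran from -4.03 to -3.67 for ES, from -4.76 to -4.10 for EHe, from -0.72 to -0.52 for EHeD7, from -1.04 to -0.83 for EHeD14 and from 0.20 to 0.44 for Hepa1-6. In EHe only 6 of the 10 spots were called well above background, so the EHe value lies near the limit of the array.

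Against EHe, Fas rose by 3.82 log2 or 14.1-fold at day 7 and by 3.53 log2 or 11.5-fold at day 14, and under a background correction by normexp these differences were 2.52 and 2.21. The step between day 7 and day 14 was -0.30 log2, just past the 0.28 of 2 spot SDs, and no longer past it with quantile normalization, at -0.26, or with centring on the median, at -0.28. That limit is for single spots and is wide for these means over 10 spots, which did not overlap between the 2 arrays. Against ES the day 14 hybrid was 7.45-fold higher, or 3.52-fold with normexp correction, and against Hepa1-6 it was 2.42-fold lower, within the 3-fold limit, or 4.30-fold lower and past it with centring on the median. Between the parents the Fas signal of Hepa1-6 was 18.1-fold that of ES, or 8.11-fold with normexp correction, and the undifferentiated hybrid lay 27.9-fold below its hepatoma parent, a difference of -4.80 log2 that was -3.41 with normexp correction, with a difference of -0.63 log2 from ES. In signal, then, EHe stood with its stem cell parent and the differentiated hybrids nearer to the hepatoma. The other Fas probe, A_52_P73385, matched a different transcript record and was well above background in Hepa1-6 alone, with -7.55, -7.13, -7.30, -6.57 and -5.05 in the order ES, EHe, EHeD7, EHeD14 and Hepa1-6. For this probe Hepa1-6 was at least 1.29-fold higher than ES, and at least 1.42-fold higher than EHeD14, bounds that do not reach 3-fold, although the bound against EHeD14 was 3.01-fold with quantile normalization. ES and the hybrids could not be compared with each other.

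The rise of Fas came with a change in marker genes. The 5 fibroblast markers had a summed signal of 1.31 for ES, 0.94 for EHe, 4.57 for EHeD7, 5.20 for EHeD14 and 0.21 for Hepa1-6, in units of the 75th percentile, and 5 of 5 were well above background in the differentiated hybrids. Thy1 was their brightest gene in the 4 stem cell and hybrid arrays, and from EHe to EHeD14 Col1a1 rose by 4.28 log2, Col1a2 by 2.34 and Thy1 by 2.17. The other 2 of the 5, Col3a1 and Pdgfra, were not called in that comparison. The 4 leukocyte markers summed to 0.35 for ES, 1.03 for EHe, 1.61 for EHeD7, 1.45 for EHeD14 and 5.36 for Hepa1-6, with Cd14 the brightest from EHe on and Ptprc, which defines leukocytes, not above background on any array. The sum followed Cd14, at 0.77 log2 from EHe to EHeD14, while Cd3e differed by -1.04 and Itgam was lower with a bound of -1.39. The part of these cell states in the Fas difference was not tested, and in bulk RNA fewer cells of a type and less RNA per cell cannot be told apart.

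Tnfrsf1a, the main receptor of tumour necrosis factor, followed a different pattern. Its probe A_52_P192426, also printed 10 times, had a relative log2 signal of 0.33 for ES, 0.76 for EHe, 0.17 for EHeD7, 0.10 for EHeD14 and 3.36 for Hepa1-6. Hepa1-6 stood alone at the top, 8.20-fold above ES and 9.61-fold above EHeD14. Both folds were larger with centring on the median, 14.1-fold over ES, and the gap to EHe was 3.28 log2 in place of 2.61. ES, EHeD7 and EHeD14 did not differ from each other by more than 2 spot SDs. These values are means over 9 or 10 spots, for which that single-spot limit is wide. The spots ran from 0.18 to 0.49 for ES, from 0.08 to 0.23 for EHeD7 and from -0.01 to 0.19 for EHeD14. EHe lay 0.43 log2 above ES, more than the 0.38 of 2 spot SDs, and the differentiated hybrids differed from EHe by -0.58 and -0.66. None of these hybrid differences reached 3-fold, so the hepatoma's high Tnfrsf1a signal was not seen in any hybrid array.

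Tnfrsf10b, the mouse receptor of the ligand TRAIL, was read by 3 probes. Probe A_52_P351638, the brightest, had -0.75 for ES, -1.41 for EHe, 0.15 for EHeD7, 0.18 for EHeD14 and -0.24 for Hepa1-6. Probe A_51_P389028 had -1.36, -1.91, -0.51, -0.39 and -2.01 in the same order, and probe A_52_P10134 had -4.22, -4.07, -3.26, -3.18 and -2.99. With each probe EHeD7 and EHeD14 were higher than EHe beyond spot noise and did not differ from each other, whereas Hepa1-6 was in the middle for the first probe, lowest with EHe for the second and highest with the differentiated hybrids for the third. These places turned with scaling, since with centring on the median Hepa1-6 was highest for A_52_P351638 and A_52_P10134 and did not differ from ES for A_51_P389028, and with quantile normalization it was also highest alone for A_52_P10134. At day 14 the differences from EHe were 1.59, 1.53 and 0.89 log2. The first of these lay just past the 3-fold limit and the second, 2.88-fold, just short of it, and the call was lost with normexp correction and with centring on the median. At day 7 the largest was 2.95-fold, and no probe was called. Hepa1-6 against ES gave 0.51, -0.65 and 1.23, so the probes did not share a direction between the parents, although with centring on the median the second was 0.13 and the third, at 2.02, was called higher, as it was with quantile normalization. With normexp correction the third went the other way, to 0.39. The 3.08-fold higher signal of A_51_P389028 in EHeD14 than in Hepa1-6 was met by 0.42 and -0.18 for the other probes, or -0.41 and -1.01 with centring, and was not called with normexp correction, quantile normalization or centring on the median.

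Cflar, also known as c-FLIP, was read by 4 probes that fell into pairs by the transcript record they matched. In the brighter probe of the first pair, A_51_P326091, the relative log2 signal was -0.34 for ES, -0.52 for EHe, 0.13 for EHeD7, 0.37 for EHeD14 and 3.77 for Hepa1-6, and its partner A_52_P226929 had -2.98, -3.40, -2.80, -2.63 and 0.90. The other pair had -1.46, -1.60, -1.71, -1.69 and -0.96 for A_51_P135491 and -2.82, -2.90, -3.00, -2.92 and -1.35 for A_52_P192071. All 4 probes were highest in Hepa1-6, for A_51_P135491 by no more than spot noise with normexp correction, and the size of the difference followed the transcript record. Hepa1-6 was 17.3-fold and 14.7-fold higher than ES in the first pair, the latter 8.79-fold with normexp correction, and in the second it differed by 1.47 log2, or 2.76-fold, for A_52_P192071, which passed 3-fold with quantile normalization and with centring, and by 0.50 log2 for A_51_P135491, or 0.33 with normexp correction beside the 0.36 of 2 spot SDs. Which part of the transcript each probe reads was not analysed here.

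Among the stem cell and hybrid arrays Cflar varied little. In the second pair the 4 arrays did not differ from their neighbours beyond spot noise, and in the first pair EHeD14 lay 0.89 and 0.78 log2 above EHe, beyond 2 spot SDs of 0.34 and short of 3-fold. The day 14 hybrid stayed below Hepa1-6 by 10.6-fold and 11.5-fold in the first pair, and by 2.98-fold for A_52_P192071, just short of the limit and past it with quantile normalization and with centring on the median. Centring also widened the gaps of the first pair, to 4.23 and 4.35 log2 in place of 3.41 and 3.52.

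Casp8, the initiator caspase of the receptor complex, had a relative log2 signal of -0.27 for ES, -1.66 for EHe, -0.99 for EHeD7, -0.69 for EHeD14 and 2.27 for Hepa1-6 with its probe A_51_P247799. Every step in the order from EHe through EHeD7, EHeD14 and ES to Hepa1-6 was larger than spot noise, though the step of 0.30 log2 from EHeD7 to EHeD14 only just passed the 0.28 of 2 spot SDs and was 0.22 with normexp correction. Hepa1-6 was 5.81-fold above ES, 7.78-fold above EHeD14 and 15.2-fold above EHe. Each of these folds was larger with centring on the median, as in 10.0-fold above ES. EHe lay below both parents, 2.61-fold under ES, and was within the 3-fold limit for that comparison, and EHeD14 was 1.95-fold above EHe.

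Casp9, the initiator caspase of the mitochondrial route, was nearly even. Its probe A_52_P663602 had 1.21 for ES, 1.13 for EHe, 0.77 for EHeD7, 0.88 for EHeD14 and 0.50 for Hepa1-6, and no array differed from its neighbour in the order beyond spot noise, while with quantile normalization and with centring on the median 1 gap did. Between the ends of the order, Hepa1-6 against ES, the difference was -0.70 log2, beyond 2 spot SDs of 0.36, but it was 0.08 with centring on the array median, so its sign depended on scaling.

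Casp6, an executioner caspase that cleaves lamin A, gave a relative log2 signal of 2.77 for ES, 2.13 for EHe, 3.0 for EHeD7, 3.13 for EHeD14 and 2.71 for Hepa1-6 with probe A_51_P215922. EHe was lowest, 0.58 below the next array, and among the other 4 no neighbouring arrays differed beyond spot noise. Across the order EHeD14 lay 0.42 above Hepa1-6 and 0.36 above ES, past the 0.31 and 0.35 of 2 spot SDs. With centring on the median Hepa1-6 was highest instead, by 0.41, and with quantile normalization EHeD7 lay 0.46 above ES. From EHe the signal was 0.87 log2 higher at day 7 and 1.00 higher at day 14, a 2.00-fold difference that was not called, and EHe differed from ES by -0.64. The parents differed by -0.06 log2, or by 0.72 with centring on the array median.

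Casp12, a caspase of the inflammatory group that has been linked in rodents to stress of the endoplasmic reticulum, was seen in the hepatoma alone. Its probe A_51_P487518 had a relative log2 signal of -7.25 for ES, -6.93 for EHe, -7.27 for EHeD7 and -7.67 for EHeD14, none well above background, and -1.08 in Hepa1-6, from intensities of 7.16, 10.6, 8.46, 6.57 and 687. Hepa1-6 was at least 20.2-fold higher than ES, at least 13.5-fold higher than EHe and at least 22.2-fold higher than EHeD14, each bound being taken at the lowest signal called well above background on the dim array. Under normexp correction the bounds were 2.58 log2 in place of 4.34 against ES, 6.98-fold against EHe and 7.33-fold against EHeD14. The hybrids were not compared with each other or with ES, because both arrays of each pair were at background.

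Cflar and Casp8 are neighbours on chromosome 1, and Casp12 lies beside Casp4 and Casp1 on chromosome 9, in the gene order of GRCm38.p6. Around Cflar and Casp8, with 4.12 and 2.54 log2 for Hepa1-6 against ES through the probe used for each gene, and 0.50 for the lowest Cflar probe, the flanking genes Orc2, Fam126b, Ndufb3, Trak2 and Stradb ranged from -1.08 for Stradb to 1.30 for Fam126b, C2cd6 had 1 array at background and gave only a bound, and Flacc1 was not well above background on either array. Around Casp12, with Casp4 at least 7.66 and Casp1 4.93 log2 higher in Hepa1-6, the genes Aasdhppt, Kbtbd3, Msantd4, Dync2h1 and Dcun1d5 ranged from -0.23 to 0.94, and Gria4, Pdgfd and Ddi1 could not be compared. The genes at the centre of each stretch were chosen with their differences known and the flanking genes by position, so the ranges are a description.

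Promoters of the members, whether or not they were called, were read from RefSeq sequences for GRCm38.p6, which held 7 of the 8 genes and not Tnfrsf10b. The 250 bases before each start were searched on both strands for 8 motifs, namely GGGCGG, which is the GC box, TGANTCA for AP-1, TTCNNNGAA for the interferon-gamma activated sequence or GAS, the CCAAT box, TATAAA for the TATA box, and by name the interferon-stimulated response element, the kappa B site and the p53 half-site. Of 32841 promoter windows 32.7% held the GC box, 6.75% the AP-1 letters, 7.02% GAS, 33.9% the CCAAT box, 12.4% the TATA box, 1.14% the interferon-stimulated element, 7.25% kappa B and 7.13% the p53 half-site. Casp9 held 4 GC boxes and Casp6 and Fas 1 each, Casp8 held 1 CCAAT box and Casp12 2, and Cflar held the TATA letters at 2 overlapping places on opposite strands. GAS letters were found 1 time in Fas, 1 time in Tnfrsf1a and 2 times in Casp12, and the AP-1 letters 1 time in Fas. The last 3 motifs had no match in these windows, which says only that the letters are not there.

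Fas and Casp12 are shown because they had the same GAS letters, TTCTGGGAA, which 1.10% of windows held and which were looked up after the matches were seen. Casp12 has them 2 times, as did 7 windows in all with 2 or more. The Fas window is chr19:34290409-34290658 and the Casp12 window chr9:5345226-5345475, both on the plus strand, with a GC content of 56.4% and 39.2%, and capitals mark the GAS and AP-1 letters. A match is a description of the sequence, and binding was not measured.
Fas: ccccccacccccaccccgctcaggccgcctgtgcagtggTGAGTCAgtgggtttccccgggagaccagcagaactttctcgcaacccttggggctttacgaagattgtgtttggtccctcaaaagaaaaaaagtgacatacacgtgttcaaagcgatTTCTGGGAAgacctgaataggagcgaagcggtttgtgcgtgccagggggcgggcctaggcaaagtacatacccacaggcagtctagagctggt
Casp12: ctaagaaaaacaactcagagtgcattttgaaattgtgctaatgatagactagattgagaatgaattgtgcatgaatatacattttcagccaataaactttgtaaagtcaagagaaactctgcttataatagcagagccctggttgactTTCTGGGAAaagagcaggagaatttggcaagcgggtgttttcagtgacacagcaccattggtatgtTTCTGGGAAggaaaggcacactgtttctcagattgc

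The other genes of these pathways were counted in 9 lists of 76 genes, 74 of which were matched to a probe. The lists were chosen with earlier results of these data known. Each gene was read through 1 probe, the one well above background on the most arrays, whereas the shares of all probes count every probe. The list counts beside those shares are thus a description. Edar and Nfkb1 were not matched and are in no count. The study's supplement does give ratios for Nfkb1, lower in ES and each hybrid sample than in Hepa1-6. Between the parents 24 of 68 tested genes, 35.3%, were higher in Hepa1-6 and 9, or 13.2%, were lower, beside 13.4% and 19.4% of all probes, with a median of 0.72 log2 beside -0.34 for all probes. The counts were 24 and 7 with quantile normalization and 32 and 5 with centring on the median, where the shares of all probes were 17.4% and 13.5%, and 23.8% and 10.4%, and 22 and 7 with normexp correction beside 9.12% and 12.3%. Some of these genes, such as Casp4, Naip2 and Tnfrsf26, were tested only through 1 bright array, and over the 59 genes well above background on both arrays 21 were higher and 6 lower, or 35.6% and 10.2%, beside 13.1% and 13.7% of all such probes. At day 14 against EHe 4 of 62 were higher and 2 lower, or 6.45% and 3.23%, near the 5.80% and 4.24% of all probes, with a median of -0.15 log2, and 3 and 2 with normexp correction. In EHe against ES 2 of 65 were higher and 1 lower, or 3.08% and 1.54% beside 2.90% and 3.16% of all probes, and 0 and 1 with normexp correction, and at day 7 against EHe 5 of 66 were higher and 2 lower, or 7.58% and 3.03% beside 5.36% and 3.83% of all probes, and the counts were 3 and 2 with centring and 2 and 2 with normexp correction. The day 14 hybrid against Hepa1-6 had 7 higher and 26 lower of 66, or 10.6% and 39.4%, beside 16.2% and 12.2% of all probes, and the counts were 5 and 27 with quantile normalization, beside 12.1% and 16.0%, 4 and 37 with centring, beside 9.52% and 24.1%, and 4 and 25 with normexp correction, beside 10.4% and 8.59%. Over the 58 genes well above background on both of these arrays 4 were higher and 22 lower, beside 10.1% and 12.3% of all such probes.

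**Figure D2:**
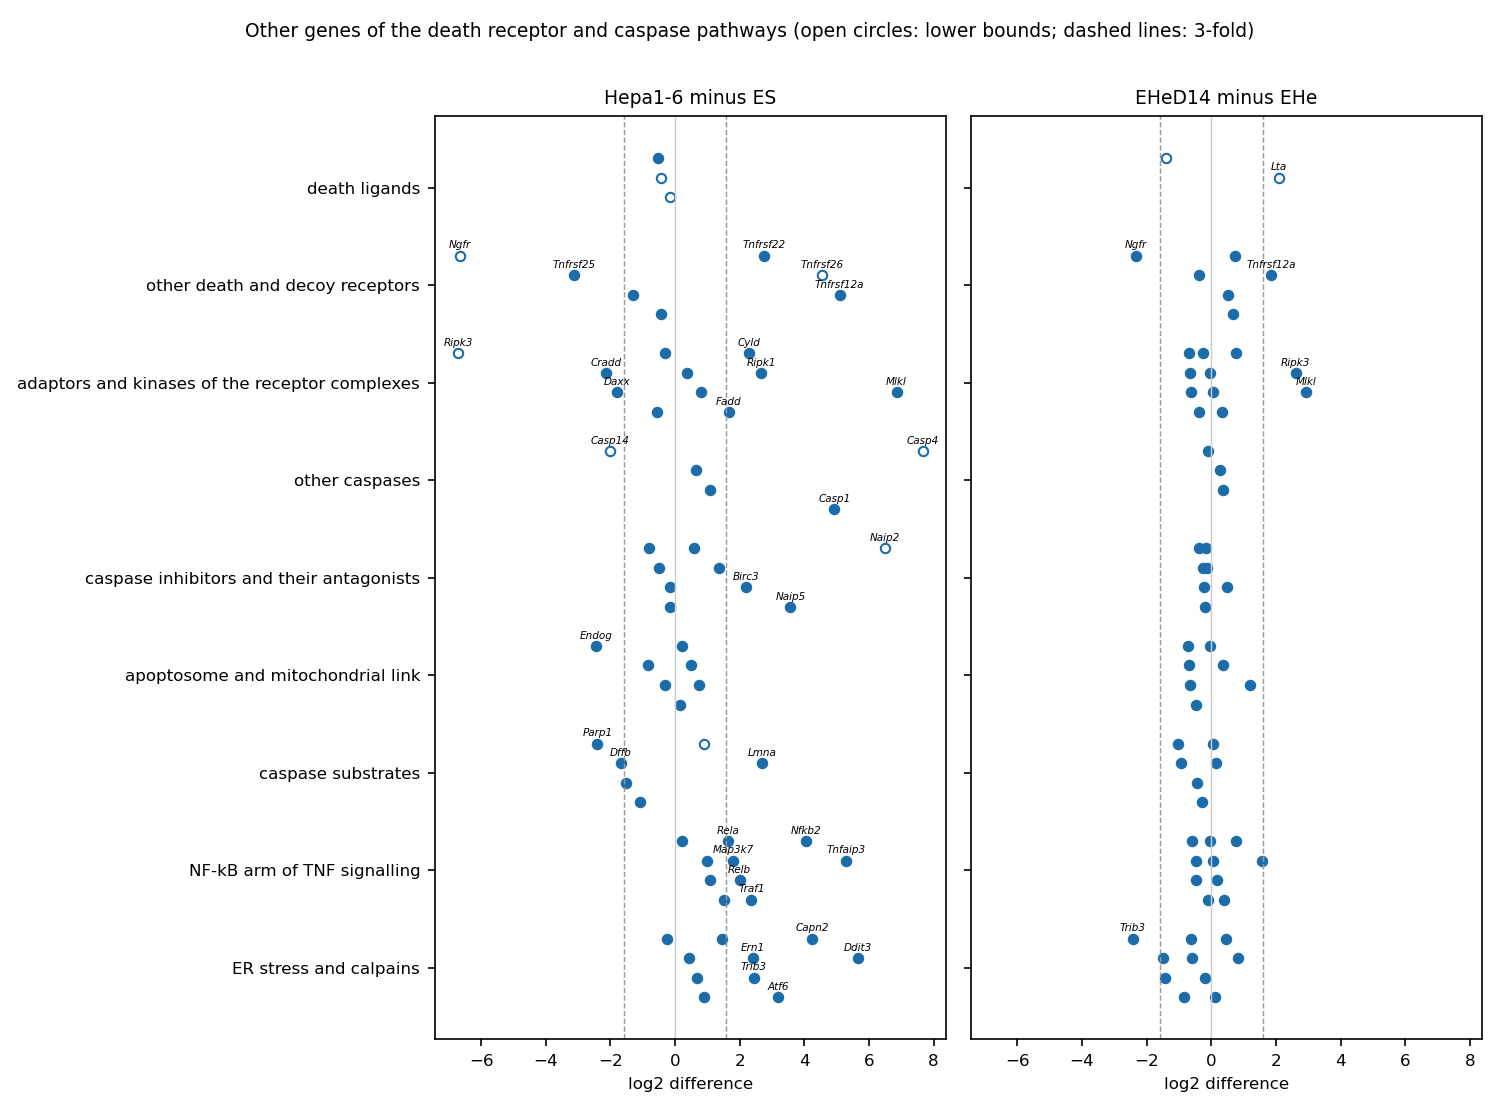
Log2 difference of each other pathway gene, by list, for Hepa1-6 minus ES and for EHeD14 minus EHe. Each circle is 1 gene through 1 probe, open circles are lower bounds with 1 array at background, dashed lines mark 3-fold, and named genes passed it. Between the parents 24 genes lie past the line on the higher side and 9 on the lower, and between EHe and EHeD14 4 and 2, with other counts under other scalings.

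Of 6 death ligands 3 could be tested between the parents and 0 were called, and at day 14 Lta, which encodes lymphotoxin alpha, was at least 4.24-fold higher than in EHe, with -2.76 in EHeD14 and -6.32, not well above background, in EHe, a call that was lost with normexp correction. Of the other death and decoy receptors 3 of 7 were higher in Hepa1-6, Tnfrsf12a, Tnfrsf22 and Tnfrsf26, and 2 were lower, Tnfrsf25 and Ngfr, beside 13.4% and 19.4% of all probes, shares that apply to every list between the parents. Tnfrsf26 was above background in Hepa1-6 alone of these 2 arrays and Ngfr in ES alone, and without them 2 of 5 were higher and 1 lower. Tnfrsf12a, the receptor of the ligand TWEAK, was 5.09 log2 higher, Tnfrsf26 at least 4.54 higher, and Ngfr, the neurotrophin receptor p75, lower with a bound of -6.66. At day 14 Tnfrsf12a rose by 1.84 log2 from EHe and Ngfr fell by 2.33. For every list at day 14 against EHe the shares of all probes were 5.80% higher and 4.24% lower. With so few genes in a list, 0 calls is near those shares.

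Among 11 adaptors and kinases of the receptor complexes, Mlkl, Ripk1, Cyld and Fadd were higher in Hepa1-6 and Ripk3, Cradd and Daxx lower, while Fadd was not called with quantile normalization or normexp correction and Cradd and Daxx were not called with centring on the median. Mlkl, the effector of necroptosis, had a relative log2 signal of -4.53 for ES, -4.00 for EHe, -0.83 for EHeD7, -1.07 for EHeD14 and 2.32 for Hepa1-6. Ripk3, the kinase that activates it, had 1.41, -0.07, 3.06 and 2.54 in the same first 4 arrays and -7.57, not well above background, in Hepa1-6. Mlkl was therefore low in the undifferentiated samples and Ripk3 at background in the hepatoma, and both were well above background and higher than in EHe in the differentiated hybrids, by 2.93 log2 for Mlkl and 2.61 for Ripk3 at day 14. Between the parents Mlkl was 6.85 log2 higher in Hepa1-6, Ripk3 was lower, with a bound of -6.72, and Ripk1, their upstream kinase, was 2.66 higher.

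Of 5 other caspases 2 were higher in Hepa1-6, Casp4 by at least 7.66 log2 and Casp1 by 4.93, both caspases of the inflammatory group. Casp14, a caspase of the skin, was lower with a bound of -2.02, a call that was lost with both other scalings and with normexp correction, and over the 3 genes above background on both arrays 1 was higher. At day 14 against EHe 0 of 3 tested were called, where 5.80% of all probes were higher and 4.24% lower. Of the caspase inhibitors and their antagonists 3 of 9 were higher in Hepa1-6 and 0 lower, with Naip2 at least 6.49 log2, Naip5 3.57 and Birc3 2.18, beside 13.4% and 19.4% of all probes. Naip2 was above background in Hepa1-6 alone of these 2 arrays, and without it 2 of 8 were higher. At day 14 against EHe 0 of 7 were called, beside the same 5.80% and 4.24% of all probes.

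Of the 7 genes of the apoptosome and its mitochondrial link, 1 was called between the parents, Endog, a mitochondrial nuclease, which fell by 2.44 log2 in Hepa1-6. Endog also fell by 1.71 from ES to EHe. Among 6 caspase substrates Lmna, the lamin A gene, was 2.68 log2 higher in Hepa1-6, Parp1, a DNA repair enzyme, fell by 2.40, and Dffb, the caspase-activated nuclease, fell by 1.68 and was not called with either other scaling or with normexp correction. Neither list had a call at day 14 against EHe, where 5.80% of all probes were higher and 4.24% lower.

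The NF-kB arm of tumour necrosis factor signalling had 0 of 10 genes called at day 14 against EHe, beside 5.80% higher and 4.24% lower of all probes. Between the parents 6 of 10 were higher in Hepa1-6 and 0 lower, where 13.4% of all probes were higher. With centring on the median 9 were higher between the parents, beside 23.8% of all probes. With normexp correction 5 were higher, without Map3k7, beside 9.12% of all probes. Nfkb2 lay at the limit in the hybrids, 3.15-fold higher than EHe and called at day 7, though not with centring or normexp correction, and 2.99-fold at day 14, where 1 gene of the list was called with quantile normalization. The 6 were Tnfaip3, Nfkb2, Traf1, Relb, Map3k7 and Rela, led by the feedback inhibitor Tnfaip3 with 5.29 log2, the NF-kB subunit Nfkb2 with 4.06 and the adaptor Traf1 with 2.36. Of 10 genes of endoplasmic reticulum stress and the calpains 5 were higher in Hepa1-6, or 7 with centring, beside the same shares of all probes, and these 5 were Ddit3, Capn2, Atf6, Trib3 and Ern1, with 5.67 log2 for Ddit3, the stress-induced factor CHOP, 4.24 for the protease Capn2 and 3.20 for the stress sensor Atf6. Trib3, a target of CHOP, fell by 2.44 log2 from EHe to EHeD14.

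The genes whose 5 values were most like a member's were sought among 15939 named probes by the root mean square distance between profiles, each centred on its mean. For Fas these were Col7a1, Sema3b and Osbpl5, at distances of 0.25, 0.25 and 0.25 log2. For Tnfrsf1a they were Mocos, Sigirr and Rdh5 with 0.04, 0.08 and 0.08, and for the brightest Tnfrsf10b probe Arhgef17, Emp3 and Elmo3 with 0.08, 0.09 and 0.09. The brightest Cflar probe was nearest to Rrbp1, Tinagl1 and Retreg1, with 0.13, 0.14 and 0.15, and its partner to Tinagl1, Hilpda and Rasgef1b with 0.09, 0.13 and 0.16. Casp8 was nearest to Tnfrsf22, a decoy receptor of the lists above, at 0.13, and to Rab20 and Helz2 with 0.15 and 0.16. Casp6 was nearest to Itpripl1, Ap2a2 and Akr1b10, with 0.04, 0.04 and 0.06, and the even profile of Casp9 to Npm3, Klc4 and Snrpa with 0.02, 0.03 and 0.03. Flat profiles find near neighbours easily, and 5 arrays give few points, so these distances describe the profiles and nothing more. Casp12 was left out because 4 of its 5 values were at background.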

How the data were processed

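The deposited per-sample tables held intensity values that the authors made with Agilent Feature Extraction 10.7.3.1, named in the submitters' processing notes, together with deposited 0/1 calls for each spot, and the deposited series table held the same intensity (difference 0). Outlier spots were left out, log2 intensity was averaged by probe and scaled to the 75th percentile, and probes well above background on at least 1 of 2 arrays were compared. Dim values were raised to the array's lowest signal well above background, giving lower bounds. Probes were named from a RefSeq table for GRCm38.p6, in which Edar, Nfkb1, Nanog, Serpina1a and Cd68 had no match. The members and lists were chosen with earlier results of these data known. A planned list entry is not reported here. All members were named; of the lists, genes past 3-fold in EHeD14 against EHe or Hepa1-6 against ES were named, with values for the largest 3, and the 3 most similar profiles for each member. Genes and values outside this rule, such as Endog in EHe and the chromosomal neighbours, were chosen after their values were seen. For a gene with several probes, lists and medians used the probe well above background on the most arrays. The probes of Cflar and of Tnfrsf10b tied on this rule, and the brightest was used for each. For Cflar the brightest probe also had the largest difference between the parents. Alternatives were normexp correction (offset 50) of the median spot signal, median centring, quantile normalization, unfloored differences, both arrays above background, a 2-fold limit, the series table, and a mean over a gene's probes. The labels name Cy3 and a monolayer, the study's methods Cy5 and embryoid bodies. The software was limma 3.58.1 under R 4.3.3, and pandas 2.3.3, numpy 2.4.6 and scipy 1.17.1 under Python 3.11.15, with plots from matplotlib 3.10.9, and the steps were tested on simulated data.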

Additional observations from a re-analysis of the deposited data

How the results depend on the processing

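With 1 array for each condition, no paired analysis was possible, and probes near background, Fas in EHe among them, limit the folds that can be read. Of 60 member counts recomputed under alternatives, leaving out the series table, whose values are identical, 53 stayed within 1.5 times the reported count and 7 did not. Many of the 53 were a reported 0 that was 0 again, for which a limit of 1.5 times has no meaning. These were the lower probes of Hepa1-6 against ES and of both differentiated hybrids against EHe, and both directions of EHe against ES. Of 12 medians recomputed for Hepa1-6 against ES and EHeD14 against EHe, 8 moved by less than 1 spot SD of a difference. The median for EHeD14 against Hepa1-6, -2.12, ranged from -2.95 with median centring to -1.28 with both arrays well above background, and that for EHe against ES, -0.63, reached -0.35 with a mean over each gene's probes. No called difference of a member for Hepa1-6 against ES or EHeD14 against EHe changed its direction. For Hepa1-6 against ES the median of 2.79 became 2.41 with normexp correction, 3.57 with median centring, 2.54 with both arrays well above background and 2.38 with a mean over each gene's probes. With a 2-fold limit 1 member probe was lower in EHe than in ES in place of 0, beside 8.84% of all probes. At that limit 3 were higher in EHeD7 than in EHe in place of 1, beside 10.4% of all probes. The shares at the 3-fold limit were 3.16% and 5.36%. For EHeD14 against EHe the 2 higher probes became 1 with normexp correction and 1 with median centring, beside 3.55% and 4.97% of all probes. For EHeD14 against Hepa1-6 the 1 higher probe became 0 with normexp correction, 0 with quantile normalization and 0 with median centring. The shares of all probes that were higher were then 10.4%, 12.1% and 9.52%. The cause of these changes was not tested. Of 80 recomputed differences of single member genes 62 moved by less than 1 spot SD, and 18 moved by more, 8 of them with median centring. Unfloored differences and the limit to both arrays above background cannot change a probe that is well above background on both arrays. The 14 of 15 and 14 of 14 differences that stayed under these settings were therefore fixed in advance. The same holds for the member counts among ES and the hybrids and for the median of EHeD14 against EHe.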
